A study of Mus musculus with 18 samples.

Results

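The interleukin-1 (IL-1) family and its receptors were represented by 10 of the 25926 genes in the table of bone marrow-derived macrophages (BMDMs): the ligands Il1a, Il1b, Il1f9, Il18 and Il33, the antagonist Il1rn, the binding protein Il18bp, and the receptor genes Il1r1, Il1r2 and Il1rap. The members were chosen by name, with the differences in their abundance between the groups already known, so those differences are given as a description and without a p-value. The BMDMs came from C57BL/6J mice. M-CSF (50 ng/mL) had been given over 7 days of culture, and the cells shared medium with tubular epithelial cells (TECs) of the kidney through Transwell pores of 0.4 μm. In the NC group (n = 6) the BMDMs received PBS and the TECs received no crystals. In the COM group (n = 6) the BMDMs also received PBS, but the TECs had been exposed to calcium oxalate monohydrate (COM) crystals at 100 μg/mL for 24 h. In the COM+Met group (n = 6) the TECs were exposed in the same way and the BMDMs received Met at 5.0 mM for 24 h, with Met left as an abbreviation in the labels. No group received Met without COM. The labels do not say whether the samples of a group were separate mice or cultures, so a p-value covers the spread among the samples as given, and that spread could be technical.

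IL-1 alpha and IL-1 beta bind the same receptor, which is made of IL1R1 and the coreceptor IL1RAP and signals through the adaptor MyD88. The pathway is restrained by the IL-1 receptor antagonist, which takes the place of the ligand, and by IL1R2, a decoy receptor without a signalling domain, while IL-18 is held in solution by its binding protein. IL-1 beta and IL-18 are made as precursors that caspase-1 cuts in an inflammasome, so the abundance of a transcript does not give the amount of active cytokine. Crystals, calcium oxalate among them, are known triggers of the NLRP3 inflammasome of macrophages.

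Values were FPKM, that is, fragments scaled to gene length and to the total of the sample, and differences were taken between group means of log2(FPKM + 1), a scale on which low genes appear to change less than they do. Every 2-fold limit given here refers to that scale. FPKM does not give the depth, which was unknown, so no counting interval could be set on the low members. All 10 macrophage markers checked reached a group mean of 1 FPKM in NC, COM and COM+Met, but their levels differed. In COM against NC, 5 of their means were higher and 5 lower. Adgre1 had means of 112, 577 and 586 FPKM in NC, COM and COM+Met, and Mrc1 of 79.95, 3.26 and 2.62. Pearson correlations over 10751 genes ran from 0.938 to 0.995 within NC and from 0.888 to 0.995 within COM, and NC-5 and NC-6 stood apart from NC-1 to NC-4, COM-4 to COM-6 from COM-1 to COM-3, and COM-6 from every other COM sample. Where leaving out NC-5 and NC-6, COM-1 to COM-3 or COM-4 to COM-6 moved a difference given here by over 1.5-fold or changed its call, the value without them stands beside it. These samples were set apart by their expression in these same data, and the labels give no batch. Leaving them out, or COM-6 alone, can therefore narrow the spread by choice. An adjusted p from such a fit is a description and not stronger evidence than the one over all samples. The median difference over all genes was -0.27 in COM against NC and -0.26 in COM+Met against NC, and moved to 0.01 in each with median-of-ratios size factors, while it lay at 0.00 in COM+Met against COM. The comparisons share the COM or the NC samples.

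**Figure D1:**
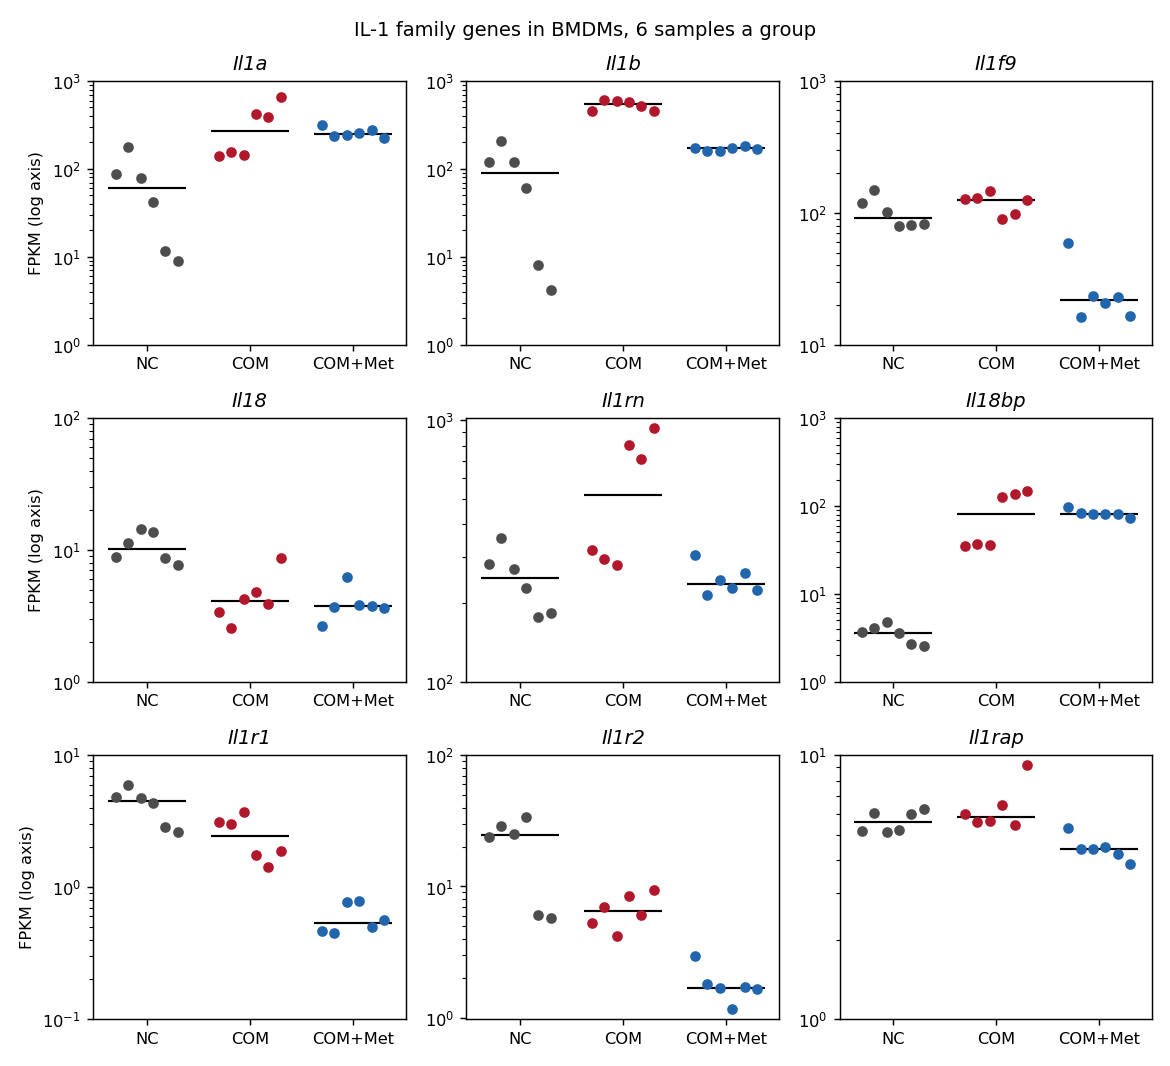
FPKM on a log axis of the 9 members above the filter on low values (a mean of 1 FPKM), in NC (grey), COM (red) and COM+Met (blue), with a point for each sample in the order of the labels and a line at the median. Il1b lay above 455 in all COM samples and below 209 in all NC and COM+Met samples, and Il18bp was below 5 in all NC samples.

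Il1b was higher in COM than in both other groups, in every sample. Its abundance was 4.18 to 209 FPKM in NC (median 89.8), 455 to 609 in COM (median 549) and 159 to 184 in COM+Met (median 171). The COM samples lay above every NC sample and every COM+Met sample, while COM+Met overlapped with NC. The difference was 3.55 ± 0.80 (log2, SE) in COM against NC and -1.64 ± 0.10 in COM+Met against COM. The value in COM+Met against NC, 1.91 ± 0.80, came largely from NC-5 and NC-6, where Il1b stood at 8.04 and 4.18 FPKM, and was 0.55 without these samples. The same samples took the value in COM against NC from 3.55 to 2.19. In contrast, COM+Met against COM gave -1.68 without COM-4 to COM-6 and -1.59 without COM-1 to COM-3. By mean FPKM among the 25926 genes, Il1b ranked 675 in NC, 97 in COM and 336 in COM+Met.

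Il1a, the other agonist of the same receptor, was also higher in COM than in NC on average. Over all samples, it did not share the lower level of Il1b in COM+Met. Its abundance was 9.02 to 178 FPKM in NC (median 60.1), 142 to 666 in COM (median 271) and 228 to 319 in COM+Met (median 248). NC-2 overlapped with COM-1 to COM-3, whereas all COM+Met samples lay above all NC samples. COM-1 to COM-3 held 142 to 154 FPKM and COM-4 to COM-6 held 389 to 666, with COM+Met between them. The difference was 2.61 ± 0.69 in COM against NC and 2.58 ± 0.61 in COM+Met against NC, and was 1.63 and 1.60 without NC-5 and NC-6. In COM against NC it was 1.76 and not called without COM-4 to COM-6, and 3.46 without COM-1 to COM-3. Between COM+Met and COM it was -0.03 ± 0.36, but this small value joined 0.82 without COM-4 to COM-6 with -0.88 without COM-1 to COM-3. The ratio of Il1a to Il1b within a sample had a median of 0.791 in NC, 0.523 in COM and 1.5 in COM+Met. It was 1.34 to 1.86 in COM+Met and reached this range in COM only in COM-6, at 1.46.

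Both genes are on chromosome 2, on the minus strand, at chr2:129299610-129309972 for Il1a and chr2:129364570-129371139 for Il1b (GRCm38, GENCODE M21). The 250 bases before their starts in RefSeq (GRCm38.p6) are shown since both neighbouring ligand genes were higher in COM than in NC on average. In COM+Met against COM they differed over all samples (-1.64 for Il1b and -0.03 for Il1a). Without COM-1 to COM-3 both were lower (-1.59 and -0.88, the latter not called). Without COM-4 to COM-6 they took opposite signs (-1.68 and 0.82). The Il1a stretch is chr2:129309973-129310222 and the Il1b stretch chr2:129371140-129371389, both written on the strand of the gene. Capitals mark TATAAA in both and, in Il1a, GAGGAA (a PU.1 core) and TGANTCA (AP-1).

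Il1a: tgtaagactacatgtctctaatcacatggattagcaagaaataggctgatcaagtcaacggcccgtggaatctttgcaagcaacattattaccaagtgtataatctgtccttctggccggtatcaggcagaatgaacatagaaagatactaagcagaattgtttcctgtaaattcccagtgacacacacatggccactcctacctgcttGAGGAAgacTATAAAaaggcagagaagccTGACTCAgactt

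Il1b: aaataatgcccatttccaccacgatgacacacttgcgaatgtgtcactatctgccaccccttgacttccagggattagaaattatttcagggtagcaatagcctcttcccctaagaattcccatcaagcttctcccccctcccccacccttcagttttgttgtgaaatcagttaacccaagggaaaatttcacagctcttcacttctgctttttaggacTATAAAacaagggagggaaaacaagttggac

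TATAAA stood at positions -32 to -27 in Il1a and -31 to -26 in Il1b, counted from -1 at the base before the start. This motif was found on either strand in 13.6% of 32851 RefSeq windows from 250 bases before to 50 after a start, AP-1 in 7.81% and GAGGAA in 28.3%. AP-1 was absent from the Il1b window, which also held no match to the kappa B motif, present in 4.51% of windows. Among the 14 windows of the 10 members, AP-1 was found in Il1a and Il1rn only, kappa B in 1 window of Il1r1, and GAAANNGAAA (ISRE, 3.44% of windows) in Il1rap. A match is a run of letters and not a shown binding site.

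Il1f9, which encodes IL-36 gamma, a ligand of the related receptor IL1RL2, was lower in COM+Met than in both other groups. Its abundance was 79.1 to 150 FPKM in NC (median 92.1), 89.2 to 146 in COM (median 126) and 16.1 to 59.3 in COM+Met (median 21.8). NC and COM overlapped, and every COM+Met sample lay below both. The difference was 0.24 ± 0.18 in COM against NC, -2.26 ± 0.27 in COM+Met against COM and -2.02 ± 0.28 in COM+Met against NC. COM+Met-1 was the highest of its group, and without it the value against COM was -2.52. The gene lies at chr2:24186476-24193568, in a stretch of chromosome 2 that also carries Il1f8, Il1f6, Il1f5, Il1f10 and Il1rn. Of these neighbours, Il1f6 (IL-36 alpha) had a mean of 1.56 FPKM in NC, 1.76 in COM and 0.148 in COM+Met, and Il1f5, Il1f8 and Il1f10 were listed at 0 in all 18 samples.

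Il18 was lower in both groups above crystal-exposed TECs than in NC. Its abundance was 7.66 to 14.5 FPKM in NC (median 10.1), 2.57 to 8.75 in COM (median 4.08) and 2.67 to 6.23 in COM+Met (median 3.74). COM-6, at 8.75, was the only COM sample inside the NC range, and COM+Met did not overlap with NC. The difference was -1.11 ± 0.22 in COM against NC, -1.24 ± 0.17 in COM+Met against NC and -0.13 ± 0.22 in COM+Met against COM. With median-of-ratios size factors the first of these was -0.83, without COM-2 it was -0.997 and without COM-1 to COM-3 it was -0.82, all under the 2-fold limit. The value in COM+Met against NC was -0.97 with median-of-ratios size factors, also under the limit. Its call was lost there, with quantile normalisation and with a pseudocount of 5. Il33, an alarmin stored in the nucleus of stromal and epithelial cells, was at most 0.112 FPKM in NC and 0 in 5 of 6 samples of COM and of COM+Met, so it was not compared.

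Il1rn, the receptor antagonist, was the most abundant member in NC and divided the COM group. Its abundance was 177 to 354 FPKM in NC (median 249), 279 to 937 in COM (median 516) and 215 to 305 in COM+Met (median 237). COM-1 to COM-3 held 279 to 320 FPKM, inside the range of NC, and COM-4 to COM-6 held 712 to 937, above all samples of both other groups. The difference in COM against NC was 1.02 ± 0.33 over all samples, 0.30 without COM-4 to COM-6, 1.75 without COM-1 to COM-3 and 0.81 without NC-5 and NC-6, and it was no longer called when NC-5, NC-6, COM-4, COM-5 or COM-6 alone was left out (lowest 0.84, without COM-6). Between COM+Met and COM it was -1.0 ± 0.31, -0.28 and -1.73 in the same order. With a single sample left out it ran from -1.17 to -0.82, and the call held in 3 of 12 fits. COM+Met and NC differed by 0.02 ± 0.16.

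Il18bp, which binds and neutralises IL-18, was higher in COM and COM+Met than in NC, with no overlap. Over all samples its difference was the largest among the members in both comparisons, but in COM against NC that of Il1b was larger without COM-4 to COM-6 (3.6 and 3.05 for Il18bp) and with a pseudocount of 5 (3.30 and 3.17). Its abundance was 2.52 to 4.83 FPKM in NC (median 3.62), 35.3 to 150 in COM (median 81.5) and 72.5 to 96.4 in COM+Met (median 81.3). The mean of COM was 24.4 times and that of COM+Met 23.2 times the mean of NC, or 4.0 ± 0.39 and 4.21 ± 0.12 on the log2 scale. COM-1 to COM-3 held 35.3 to 37.3 FPKM and COM-4 to COM-6 held 126 to 150, with all COM+Met samples between them. The means of these parts of COM were 10.2 and 38.6 times that of NC, and the difference in COM against NC was 3.05 without COM-4 to COM-6 and 4.94 without COM-1 to COM-3. The difference between COM+Met and COM was accordingly 0.22 ± 0.38 over all samples, 1.16 without COM-4 to COM-6 and -0.73 without COM-1 to COM-3.

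The gene is at chr7:102014885-102018690 on the minus strand (GRCm38). Its 250 bases before the RefSeq start, chr7:102018233-102018482 on the strand of the gene, are shown since its difference from NC was the largest among the members over all samples. The RefSeq start lies 458 bases downstream of the GENCODE start, so this stretch is inside the gene as GENCODE gives it, whereas both annotations place the starts of Il1a and Il1b at the same base. Capitals mark TTGCNNAA (C/EBP).

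Il18bp: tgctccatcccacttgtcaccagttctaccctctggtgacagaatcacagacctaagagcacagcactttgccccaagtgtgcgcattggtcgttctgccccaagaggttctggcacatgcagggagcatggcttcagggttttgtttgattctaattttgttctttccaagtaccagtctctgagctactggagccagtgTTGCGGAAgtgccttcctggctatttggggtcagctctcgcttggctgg

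The match lay at positions -49 to -42. TTGCNNAA occurred in 10.8% of the 32851 windows and, among the members, also in Il1r1 and Il33.

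The ratios within a sample, which do not depend on how samples are scaled, moved in opposite directions for the IL-1 and IL-18 arms. Il1rn over the sum of Il1a and Il1b was 0.917 to 13.9 in NC (median 1.80), 0.380 to 0.835 in COM (median 0.658) and 0.528 to 0.623 in COM+Met (median 0.564). The antagonist transcript was therefore below the summed agonists in all 12 samples above crystal-exposed TECs and above them in 5 of 6 NC samples, NC-2 being the exception. NC-5 and NC-6 gave the highest ratios, 9.04 and 13.9, and the other NC samples 0.917 to 2.24. Il18bp over Il18 was 0.265 to 0.410 in NC (median 0.332), 8.54 to 34.9 in COM (median 15.9) and 13.0 to 36.1 in COM+Met (median 21.3). The ratios of COM and COM+Met overlapped for both pairs.

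**Figure D2:**
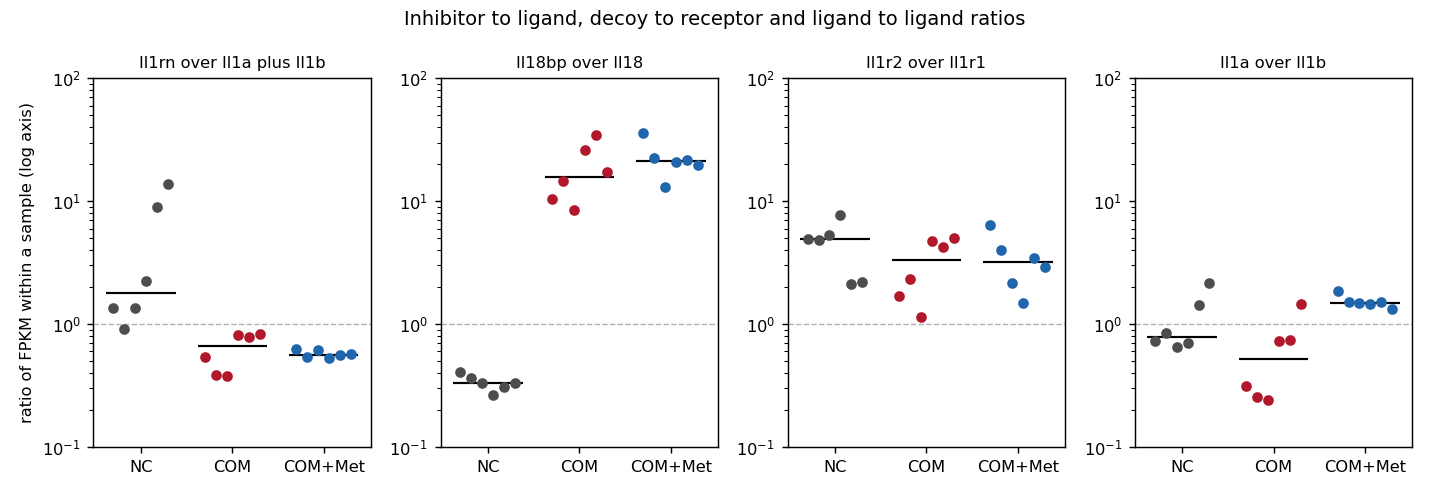
Ratios of FPKM within each sample on a log axis, with a point for each sample in NC (grey), COM (red) and COM+Met (blue), a line at the median and a dashed line at a ratio of 1. Il18bp over Il18 was below 1 in all NC samples and at least 8.54 in all others.

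The receptor genes were lower in COM+Met than in COM. Il1r1, the signalling receptor, had 2.62 to 5.98 FPKM in NC (median 4.53), 1.41 to 3.71 in COM (median 2.44) and 0.452 to 0.782 in COM+Met (median 0.530). COM overlapped with NC and COM+Met lay below both. The difference was -0.59 ± 0.20 in COM against NC and -1.09 ± 0.16 in COM+Met against COM, a comparison in which Il1r1 passed the filter on low values through its level in COM. Without COM-1 to COM-3 it did not pass the filter, without COM-3 alone its difference was -1.0 and under the 2-fold limit, and COM-4 to COM-6 held 1.41 to 1.88 FPKM against 2.99 to 3.71 in COM-1 to COM-3.

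Il1r2, the decoy, had 5.73 to 33.6 FPKM in NC (median 24.6), 4.21 to 9.43 in COM (median 6.52) and 1.16 to 2.94 in COM+Met (median 1.70). NC-5 and NC-6, at 6.02 and 5.73, lay within COM, and NC-1 to NC-4 held 24.0 to 33.6. The difference in COM against NC was -1.25 ± 0.42, -1.93 without NC-5 and NC-6 and -0.95 with median-of-ratios size factors. It was not called without COM-4 to COM-6 (-1.48), without COM-1 to COM-3 (-1.01), or without NC-2 or NC-4 alone, although the difference stayed over 2-fold (-1.05 without NC-4). Against COM, COM+Met differed by -1.44 ± 0.18, and the groups did not overlap. Il1r2 over Il1r1 was 2.12 to 7.75 in NC (median 4.91), 1.13 to 5.01 in COM (median 3.31) and 1.48 to 6.36 in COM+Met (median 3.18), with overlap between all groups and a value above 1 in all 18 samples.

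Il1rap, the coreceptor, stayed under a 2-fold difference in all 3 comparisons. It had 5.11 to 6.27 FPKM in NC (median 5.59), 5.44 to 9.18 in COM (median 5.83) and 3.88 to 5.31 in COM+Met (median 4.42). COM+Met lay below COM in all samples, with a difference of -0.42 ± 0.11, and overlapped with NC. COM against NC was 0.14 ± 0.12, and 0.05 without COM-6, the highest sample.

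**Figure D3:**
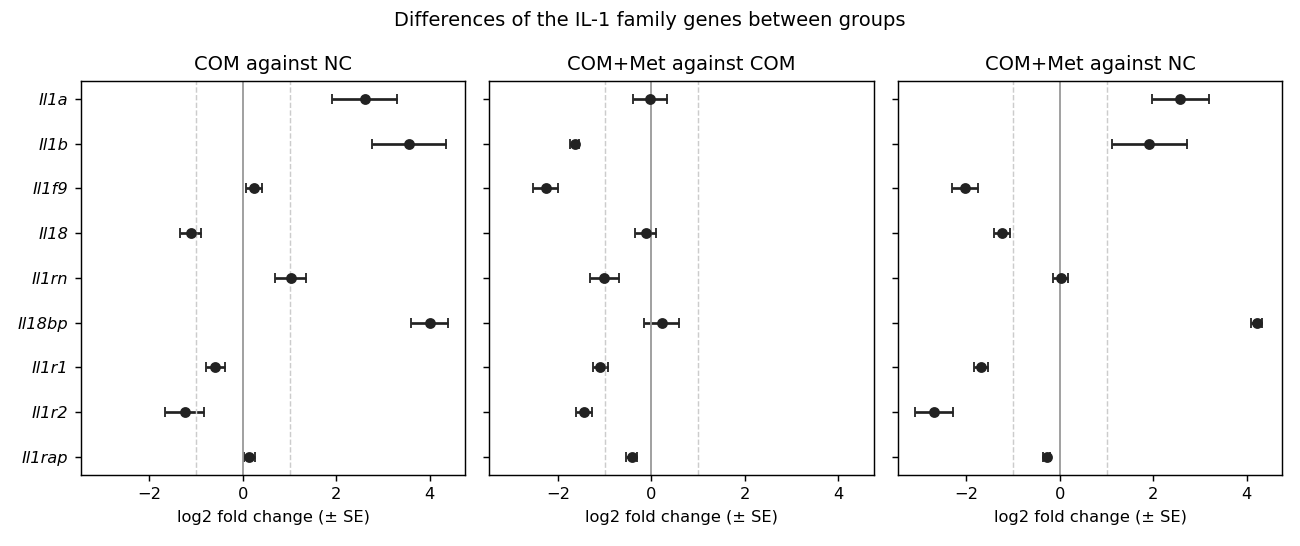
Differences between group means on the scale log2(FPKM + 1) with their standard errors for the 9 members tested, in the 3 comparisons, with dashed lines at a 2-fold difference. Il18bp lay near 4 in both comparisons with NC and near 0 in COM+Met against COM, where Il1b, Il1f9, Il1r1 and Il1r2 lay below -1 and Il1rn at about -1.

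With a call set at an adjusted p below 0.05 and a difference of at least 2-fold (limma, Benjamini-Hochberg adjustment over all genes tested), 4 members were higher (Il1a, Il1b, Il1rn and Il18bp) and 2 lower (Il18 and Il1r2) in COM against NC. Beside these, 5.99% of 10900 genes passed upwards and 11.7% downwards. Between COM+Met and COM, 0 members were higher and 5 lower (Il1b, Il1f9, Il1rn, Il1r1 and Il1r2), beside 0.608% of 10364 genes upwards and 1.61% downwards. Since the choice of the members used these contrasts, nothing is read from their counts.

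In COM against NC, 2 members did not overlap upwards (Il1b and Il18bp, beside 8.6% of genes) and 0 downwards (29.7% of genes). Between COM+Met and COM, 0 members lay wholly above (5.83% of genes) and 5 wholly below (Il1b, Il1f9, Il1r1, Il1r2 and Il1rap, beside 5.34%). Between COM+Met and NC, 2 lay wholly above (Il1a and Il18bp, beside 14.1%) and 4 wholly below (Il1f9, Il18, Il1r1 and Il1r2, beside 43.6%).

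**Figure D4:**
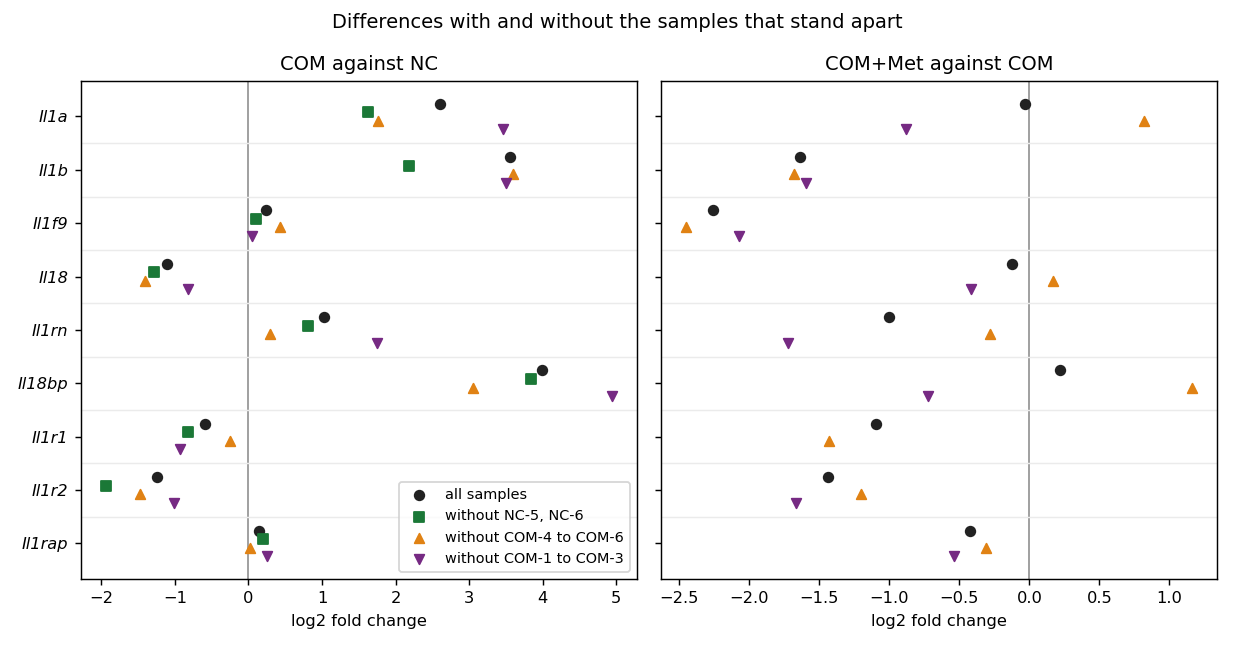
Differences (log2) of the members over all samples and without the samples that stand apart, in COM against NC and in COM+Met against COM. Il1b stayed between -1.68 and -1.59 in COM+Met against COM, while Il1a and Il18bp took opposite signs with COM-1 to COM-3 and with COM-4 to COM-6.

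The levels of Il1b and Il1rn were set beside those of 10751 genes by the root mean square difference of centred log2 values over the 18 samples, as a description. The genes nearest to Il1b were Ly6i (0.435), Ly6c2 (0.517), Ly6a (0.613), Ccl22 (0.623) and Tarm1 (0.645). Ly6c2, a surface marker of inflammatory monocytes, had means of 152, 1321 and 295 FPKM in NC, COM and COM+Met, and the 3 Ly6 genes are paralogs of the same family, among which reads could be split. The genes nearest to Il1rn were Bnip3 (0.235), Ero1l (0.259), Fpr1 (0.277), Igf2bp2 (0.311) and Sirpb1b (0.322). Bnip3, a mitochondrial protein gene induced by low oxygen, had means of 12.2, 20.6 and 11.4 FPKM.

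The other genes of the family and of the pathway were taken from lists that had likewise been drawn up with earlier results of these data known, so their p-values, adjusted over all genes tested, are not independent evidence. Among the other receptors of the family, Il1rl2, the receptor for the Il1f9 product, was the most abundant. It had 27.8 to 31.7 FPKM in NC, 13.8 to 29.2 in COM and 12.6 to 13.8 in COM+Met. COM-1 to COM-3 held 25.9 to 29.2 FPKM, near NC, and COM-4 to COM-6 held 13.8 to 16.2, near COM+Met. The difference was -0.55 ± 0.18 in COM against NC (adjusted p = 0.0194 from limma), -0.15 without COM-4 to COM-6 (adjusted p = 0.0657) and -0.96 without COM-1 to COM-3 (adjusted p = 2.07e-05). In COM+Met against COM it was -0.58 ± 0.17 (adjusted p = 0.0436, up to 0.0926 with a sample left out), -0.99 without COM-4 to COM-6 (adjusted p = 2.62e-08) and -0.18 without COM-1 to COM-3 (adjusted p = 0.107). None of these values reached 2-fold on the log2(FPKM + 1) scale, so Il1rl2 was not called. Il1rl2 lies between Il1r1 and Il1rl1 in the receptor cluster of chromosome 1, where Il1r2, Il1r1, Il1rl2, Il1rl1, Il18r1 and Il18rap follow each other from 40074079 to 40551705 on GRCm38.

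The 3 receptor genes at the far end of this cluster were near 0 in COM and COM+Met. Il18rap, the coreceptor for IL-18, had 2.30 to 3.64 FPKM in NC and 0.0624 to 0.285 in COM (-1.80 ± 0.11), and at most 0.0688 in COM+Met. It passed the filter on low values only through NC, where it was high, so no p-value is given for it. Il18r1 had means of 0.819, 0.0174 and 0.00112 FPKM and Il1rl1, the receptor for IL-33, of 0.894, 0.0309 and 0.00432. Of 6 basophil and mast cell markers, 4 had lower means in COM and COM+Met, as these receptors did, and the summed level of the list was 11.5 to 21.1 FPKM in NC, 0.743 to 3.94 in COM and 0.731 to 1.67 in COM+Met. Cpa3 had means of 10.6, 0.302 and 0.0297 FPKM and Mcpt8 of 4.87, 0.206 and 0, while Mcpt4 was at 0 throughout and Fcer1a and Tpsb2 were at 0 in COM and COM+Met. Kit did not share this order, with means of 0.875, 1.85 and 1.0 FPKM, and was the most abundant of the list in COM and COM+Met. In bulk samples, fewer cells of a type and less RNA per cell cannot be told apart, and the part of these markers in the result was not tested. Of the 11 other family genes, limma called 0 higher and 1 lower (Il18rap, with the limit given above) of 3 tested in COM against NC. In COM+Met against COM it called 0 of 1. The shares over all genes were 5.99% upwards and 11.7% downwards in COM against NC, and 0.608% and 1.61% in COM+Met against COM. Sigirr, a negative regulator, was at most 0.682 FPKM, and Il1rapl1 and Il1rapl2 were at 0 in all samples.

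Genes that process and release the ligands changed in both directions in COM. Of 22 such genes, 19 were tested, and 4 were called higher and 3 lower, beside 5.99% and 11.7% of all genes tested. Their median difference was 0.21 beside -0.27 for all genes. Mefv, the pyrin gene, rose most, from at most 5.02 FPKM in NC to 27.7 to 32.2 in COM (3.20 ± 0.44, adjusted p = 6.79e-05). NC-5 and NC-6 held 0.162 and 0.123 FPKM of Mefv and NC-1 to NC-4 held 3.74 to 5.02, and its value was 2.44 without NC-5 and NC-6 (adjusted p = 6.85e-08). Casp4, the sensor of intracellular lipopolysaccharide, rose by 1.90 ± 0.27 (adjusted p = 0.000107). Casp1, whose product cuts the precursors of IL-1 beta and IL-18, rose from 30.7 to 36.9 FPKM in NC to 50.7 to 184 in COM (1.43 ± 0.30, adjusted p = 0.00162). COM-1 to COM-3 held 50.7 to 59.0 FPKM of Casp1, and its value was 0.71 without COM-4 to COM-6, under the 2-fold limit, and 2.15 without COM-1 to COM-3. Nlrp3, which was at the 2-fold limit (1.01 ± 0.32, adjusted p = 0.0189), had 10.9 to 46.6 FPKM in NC and 47.6 to 54.6 in COM, and was 0.46 without NC-5 and NC-6. It was not called without COM-4 to COM-6 (0.99, adjusted p = 0.0929) or COM-1 to COM-3 (1.02, adjusted p = 0.0723), and its call was also lost without NC-5, NC-6, COM-2, COM-4 or COM-6 alone, with a lowest value of 0.78.

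The genes called lower were Capn2, a calpain (-1.69 ± 0.15, adjusted p = 1.84e-06), Nlrp1b (-1.33 ± 0.18, adjusted p = 6.07e-05), which has a close paralog in Nlrp1a, and Pycard, the adaptor that joins the sensor to caspase-1 (-1.06 ± 0.15, adjusted p = 7.87e-05). Pycard had 20.3 to 31.4 FPKM in NC and 7.81 to 12.7 in COM, and its value was -0.76 with median-of-ratios size factors, so its call depended on the scaling, and the call was also lost without NC-5 and NC-6 (-0.89), without COM-4 to COM-6 (-0.90), and without NC-5, NC-6 or COM-6 alone (-0.99 to -0.97). Gsdmd, whose product opens the membrane pore, did not pass the test over all samples (0.54 ± 0.23, adjusted p = 0.0593). COM-6 held 39.1 FPKM of Gsdmd and the other COM samples 78.3 to 87.1, and without COM-6 the value was 0.72 with an adjusted p of 0.00467, under 2-fold. In COM+Met against COM limma called 0 of the 19 genes tested, beside 0.608% of all genes upwards and 1.61% downwards. At an adjusted p below 0.05 and under 2-fold, 1 was higher and 5 lower, and 8 passed at an unadjusted p below 0.05. Casp1 (0.41 ± 0.30, adjusted p = 0.393), Nlrp3 (-0.19 ± 0.08, adjusted p = 0.13), Pycard (0.00 ± 0.11, adjusted p = 0.983) and Gsdmd (-0.05 ± 0.17, adjusted p = 0.866) did not pass over all samples. Without COM-6 alone, Gsdmd was -0.23 with an adjusted p of 0.0097. Casp1 was higher by 1.13 when COM-4 to COM-6 were left out (adjusted p = 6.18e-08) and was -0.30 without COM-1 to COM-3 (adjusted p = 0.0772). The samples left out were set apart on these same data, so these adjusted p-values are not tests of their own.

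**Figure D5:**
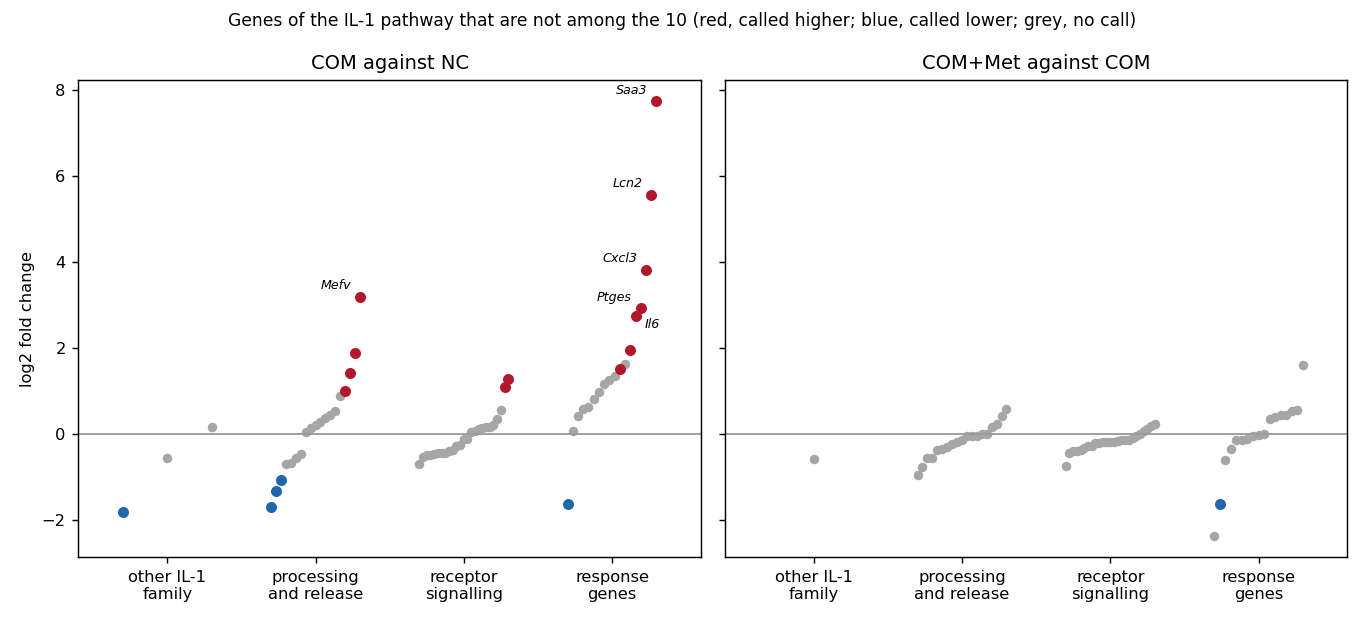
Differences (log2) of the tested pathway genes that are not among the 10 members, by list, in COM against NC and in COM+Met against COM, with genes called higher in red, called lower in blue and not called in grey. Saa3, Lcn2 and Cxcl3 lay highest in COM against NC, and Cxcl3 was the only gene called in COM+Met against COM.

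All 25 signalling genes behind the receptor were tested in COM against NC. Limma called 2 higher and 0 lower, beside 5.99% and 11.7% of all genes tested. Their median difference was -0.11 beside -0.27 for all genes. At an adjusted p below 0.05 and whatever the fold, 4 were higher, Irak2 and Traf6 among them, and 7 lower. The genes called were Irak3, which encodes the inhibitory kinase IRAK-M (1.28 ± 0.26, adjusted p = 0.00141), and Peli1, an E3 ubiquitin ligase (1.11 ± 0.21, adjusted p = 0.000874). Irak3 was 0.90 without NC-5 and NC-6, and Peli1 was 0.99 without NC-5 and NC-6, 0.67 without COM-4 to COM-6 and 0.95 without COM-6 alone, all under 2-fold. Myd88 had 48.1 to 67.9 FPKM in NC and 40.8 to 61.3 in COM (-0.11 ± 0.13, adjusted p = 0.477), and took the opposite sign (0.20) with median-of-ratios size factors. In COM+Met against COM limma called 0 of the 25, beside 0.608% of all genes upwards and 1.61% downwards. At an adjusted p below 0.05, 2 were lower, and 7 passed at an unadjusted p below 0.05. Myd88 did not pass over all samples (-0.17 ± 0.10, adjusted p = 0.282) but had an adjusted p of 0.0113 without COM-6 alone (-0.25).

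Of 20 genes that IL-1 is known to induce, 18 were tested in COM against NC. Limma called 7 higher and 1 lower, beside 5.99% and 11.7% of all genes tested. The median difference was 1.31 beside -0.27 for all genes. Saa3, an acute-phase gene in a family of close paralogs, rose from 6.02 to 54.4 FPKM in NC to 2731 to 10910 in COM (7.74 ± 0.57, adjusted p = 4.71e-07), and Lcn2, a siderophore-binding protein gene, by 5.57 ± 0.39 (adjusted p = 2.89e-07). Without NC-5 and NC-6, without COM-4 to COM-6 and without COM-1 to COM-3, Saa3 gave 6.98, 7.00 and 8.49, and Lcn2 gave 5.07, 4.95 and 6.20. Ptges, which makes prostaglandin E2, rose by 2.93 ± 0.24 (adjusted p = 1.13e-06) and Il6 by 2.76 ± 0.49 (adjusted p = 0.000544, and 1.93 without NC-5 and NC-6). Cxcl3, a neutrophil chemokine, rose by 3.83 ± 0.99 (adjusted p = 0.00604). NC-5 and NC-6 held 7.68 and 3.57 FPKM of Cxcl3 and NC-1 to NC-4 held 68.7 to 333, and its value was 2.29 without NC-5 and NC-6 (adjusted p = 0.00987) and 3.12 without NC-6 alone. It was 4.83 without COM-4 to COM-6, and 2.83 and not called without COM-1 to COM-3 (adjusted p = 0.0787). As background, Toll-like receptor ligands and other cytokines are also known to induce many of these genes.

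In COM+Met against COM, where Il1b was lower in all samples, limma called 1 of 17 response genes, Cxcl3, which was lower. Beside this, 0.608% of all genes passed upwards and 1.61% downwards. At an adjusted p below 0.05 and whatever the fold, 1 was higher and 1 lower, and 6 passed at an unadjusted p below 0.05. Cxcl3 had 313 to 1654 FPKM in COM and 173 to 480 in COM+Met (-1.63 ± 0.45, adjusted p = 0.0302). The call held in 4 of 12 fits that left out a sample, with an adjusted p of up to 0.0715 without COM+Met-2. The value was -2.63 without COM-4 to COM-6 (adjusted p = 5.43e-06) and -0.63 without COM-1 to COM-3 (adjusted p = 0.133), and COM-4 to COM-6 held 313 to 424 FPKM, a range that COM+Met-1, at 480, exceeded. Cxcl5, Saa3, Lcn2 and Il6 were picked for this comparison after their values were seen and are described without a p-value. Cxcl5 had a larger difference than Cxcl3 but was not called (-2.36 ± 0.73). It had 19.9 to 28.9 FPKM in COM-1 to COM-3, 0.674 to 1.32 in COM-4 to COM-6 and at most 0.655 in COM+Met. Saa3 was not called over all samples (0.57 ± 0.35), with 2731 to 3225 FPKM in COM-1 to COM-3, 5052 to 10910 in COM-4 to COM-6 and 5845 to 8350 in COM+Met. Its value was 1.32 without COM-4 to COM-6 and -0.17 without COM-1 to COM-3. Lcn2 was not called either (-0.61 ± 0.26), with 640 to 721 FPKM in COM-1 to COM-3, 1533 to 1672 in COM-4 to COM-6 and 628 to 713 in COM+Met. Its value was 0.01 without COM-4 to COM-6 and -1.23 without COM-1 to COM-3. Il6 (-0.34 ± 0.14) was -0.24 and -0.44 in the same order. The median over the 17 was -0.01, beside 0.00 for all genes. Over the 4 lists, 65 genes were tested in COM against NC. Of these, 13 were called higher and 5 lower, beside 5.99% and 11.7% of all genes. In COM+Met against COM, 0 were called higher and 1 lower of 62, beside 0.608% and 1.61%. Of the genes called in COM against NC, Csf3 and Il18rap passed the filter only through the group in which they were high. Leaving out COM-4 to COM-6 took the calls in the latter comparison to 4 upwards and 5 downwards.

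Markers of other cells differed between the groups too, though not all in the same direction. Neutrophils are known to express Il1r2, and their markers summed over 14 genes to 554 to 1043 FPKM in NC, 180 to 617 in COM and 79.2 to 143 in COM+Met. By mean, the sum was led by Mmp8 and S100a8 in each group, followed by S100a9 in NC and by Mmp9 in COM and COM+Met. Mpo and Elane were at 0 in COM and COM+Met and Ly6g was at 0 in 4 of 6 NC samples. The means of 12 of the 14 were lower in COM than in NC, but those of Mmp9 (5.14, 32.6 and 4.05 FPKM in NC, COM and COM+Met) and Camp (4.33, 7.93 and 3.08) were highest in COM. Dendritic cell markers summed over 6 genes to 2.51 to 27.2, 63.9 to 225 and 38.7 to 76.2 FPKM, most of it Ccr7, with means of 9.94, 133 and 55.7. Flt3 (0.370, 2.49 and 0.896 FPKM) also had its highest mean in COM. In contrast, the mean of Clec9a was highest in NC (3.40, 2.38 and 0.764 FPKM), and Cd209a was at 0 in COM and COM+Met. Stromal and endothelial markers summed over 10 genes to 19.2 to 65.6, 14.6 to 40.9 and 9.32 to 12.3 FPKM. The sum was led by Col1a2 in NC (means of 17.7, 4.42 and 0.200 FPKM) and by Kdr in COM and COM+Met (0.615, 5.15 and 6.30), and Pdgfrb was also higher in the latter groups (1.06, 4.81 and 2.93). Tubular epithelial markers summed over 12 genes to at most 18.4, 1.34 and 0.324 FPKM, led by Cdh1. The part of these cells in the levels of the members was not tested.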

How the data were processed

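RNA of 18 BMDM samples (NC, COM and COM+Met, 6 each, grouped by the labels) was sequenced from TruSeq libraries. The authors deposited FPKM for 25926 genes, 1 column a sample. Bowtie 0.12.2, mm8 and mm9 stand in the submitters' processing notes, with no role. Which quantifier and annotation were used is not given in the sources used here. Positions were taken from GENCODE M21 (GRCm38) by Ensembl identifier, which matched for all 10 members, and promoter windows from RefSeq (GRCm38.p6), in which all 10 members were found. FPKM follows each sample's total, so a gene falls when abundant genes rise. The most common ratio of low values between samples was shared by at most 0.368% of genes, which gave no whole reads, and depth is unknown.

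Genes averaging 1 FPKM or more over the compared samples entered limma 3.58.1 (R 4.3.3, eBayes with trend) as log2(FPKM + 1). Each comparison was fitted on its own 12 samples, and p-values were adjusted over all its genes (Benjamini-Hochberg). A call needed an adjusted p below 0.05 and at least 2-fold. The procedure was tested on simulated data with independent noise and, for each gene, the same spread in both groups. The simulation held no samples that stand apart, so it does not show how the calls behave with them. COM+Met against NC is given for the members alone. Python 3.11.15 with numpy 2.4.6, pandas 2.3.3 and matplotlib 3.10.9 made the tables and plots.

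The members and the lists of pathway and marker genes were chosen with earlier results of these data known. Named genes are all members, every other family gene with a level, the 5 called genes with the largest difference in each other list and comparison, and Nlrp3, Pycard, Casp1, Gsdmd and Myd88 in any case. Genes named outside this rule (Cxcl5, Saa3, Lcn2 and Il6 in COM+Met against COM, Irak2, Traf6, Csf3 and markers) and the ratio of Il1a to Il1b were picked after their values were seen. The alternatives were quantile normalisation, median-of-ratios size factors, TPM, pseudocounts of 0.1 and 5, a filter at 5 FPKM or at any value above 0, limma sample weights, a replicate block, a fit of all 18 samples, leaving out each sample, and leaving out the samples that stand apart.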

Additional observations from a re-analysis of the deposited data

Results flagged for a closer look

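Among 30 sets of 6 samples (10 members in 3 groups), 4 held a sample whose gap to the next was above Dixon's critical value of 0.625 of the range, where chance flags about 1 set in 20. Il1f9 in COM+Met-1 stood at 59.3 FPKM, with the other COM+Met samples at 16.1 to 23.2. Il1rap in COM-6 stood at 9.18 FPKM, with the other COM samples at 5.44 to 6.48. Il33 was listed above 0 in a single sample of COM (COM-6, 0.0164 FPKM) and of COM+Met (COM+Met-1, 0.0158 FPKM), so that any value there would be far from the others.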

How the results depend on the processing

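In COM against NC, the count of members called higher (4) became 2 with limma sample weights and without COM-4 to COM-6, where Il1a and Il1rn were lost, and Il1b and Il18bp were called under every alternative. The count called lower (2) became 0 with a pseudocount of 5, median-of-ratios size factors, quantile normalisation and without COM-1 to COM-3, 1 without COM-4 to COM-6, and 1 to 2 with each sample left out. The count of pathway genes called lower (5) became 1 with a pseudocount of 5, 3 with a filter of 5 FPKM, and 3 to 5 with each sample left out, lowest without COM-6. In COM+Met against COM, the count of members called higher (0) became 1 (Il18bp) with sample weights and without COM-4 to COM-6. The count called lower (5) became 2 with a pseudocount of 5 and 3 with a filter of 5 FPKM, and Il1f9 was called under every alternative, Il1b under all but the fit of all 18 samples. The count of pathway genes called higher (0) became 4 with sample weights and without COM-4 to COM-6, and 1 without COM-1 to COM-3. The count called lower (1) became 3 with a pseudocount of 0.1, 4 with TPM, 2 with median-of-ratios size factors, quantile normalisation and without COM-1 to COM-3, 5 with sample weights and without COM-4 to COM-6, and 0 to 3 with each sample left out, with 0 when a sample of COM-1 to COM-3 was the missing one. The cause was not tested.

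Against NC, the log2 difference of Myd88 turned to 0.20 with median-of-ratios size factors. In COM+Met against COM, Pycard turned to 0.016 with median-of-ratios size factors, 0.0059 with quantile normalisation, 0.16 without COM-1 to COM-3, and ran from -0.097 to 0.031 with each sample left out. Gsdmd turned to 0.076 and Casp1 to -0.30 without COM-1 to COM-3, and Gsdmd ran from -0.23 to 0.0014 with each sample left out. With a pseudocount of 1 in both terms, the mean log2 ratio of Il18bp to Il18 in NC was -1.36 in place of -1.59, and that of Il1r2 to Il1r1 in COM+Met 0.81 in place of 1.61, since these values are low.

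With a replicate block, 3 members were called higher and 2 lower in COM against NC (Il1rn was lost), and 0 and 4 in COM+Met against COM (Il1rn was lost). The pathway counts were then 14 and 5, and 0 and 1. No pairing by number was seen. Deviations of same-numbered samples correlated at -0.222 to 0.057, and a sample correlated best with its own number in 1 case at most. NC and COM each hold samples that stand apart and weigh on these deviations, so a pairing is not excluded.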
